A study of Mus with 16 samples.

Results

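The comparison was between epiblast stem cells of 2 F1 hybrid crosses, CastB6 and PwkB6. Its members are the 4 libraries titled CastB6 and the 4 titled PwkB6, which are 8 of the 16 libraries in the series. One parent of each of these 2 crosses was the laboratory strain C57Bl/6J. The other was a wild-derived inbred strain of another subspecies, which the titles give only as Cast or Pwk. The remaining libraries, 4 MolfB6 and 4 SpretB6, share that laboratory parent and entered the model to estimate the spread. Their levels are given beside those of the compared crosses. All libraries were made from total RNA after removal of ribosomal RNA, and the labels, which refer to an earlier article for growth and treatment, name no difference between the groups other than the cross. The labels do not say whether the libraries of a cross are separate cell lines, cultures or animals, so the p-values speak of variation among these libraries alone, and that variation may be technical. The stated purpose of the bulk libraries was to set allelic mapping in bulk beside that in 10x single cells. The tables used here give totals over both alleles, and allele-level data were not analysed here.

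Epiblast stem cells are pluripotent cells derived from the epiblast after implantation. They depend on FGF and Activin signals and are described as primed, in contrast to naive embryonic stem cells. As these strain names are commonly used, Cast stands for a Mus musculus castaneus strain and Pwk for a Mus musculus musculus strain, subspecies that differ at many positions in the genome. In an F1 hybrid both parental copies of a gene sit in one nucleus, so a difference between 2 hybrids can come from the wild-derived copy itself or from the factors that act on both copies. Totals over both alleles do not separate these. How the counting treated reads of wild-derived alleles was not given in the sources used here. The part of that treatment in the differences was not tested. A transcript is one RNA form of a gene, and where forms or gene copies share sequence, the counting program divides their common reads by a statistical estimate.

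Each table lists 116747 transcripts by Ensembl transcript ID, and 56721 had enough reads over the 16 libraries to be tested. Reads in MolfB6 or SpretB6 could thus carry a transcript through the filter. With the filter run on the 8 compared libraries alone, 49843 were tested. The IDs are not paired with gene names in the files, so transcripts are given by ID and length, and the labelled cell type was not checked against its marker genes. Library totals ran from 55396992 to 68801168 estimated counts in CastB6 and from 42596559 to 71200628 in PwkB6. Spearman correlations between libraries, over the log2 CPM of transcripts, averaged 0.889 within CastB6, 0.879 within PwkB6 and 0.862 between the crosses. PwkB6 5 was closer to CastB6 1 (0.899) than to any PwkB6 library (at most 0.887). The other 7 libraries were each closest to one of their own cross. PwkB6 6 stood apart in another way: long transcripts took a larger part of it than of any other of the 16 libraries. Results that rest on these libraries are given with and without them.

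CastB6 and PwkB6 differed in 2134 of 56721 tested transcripts, or 3.76% (edgeR, quasi-likelihood test, with p under 0.05 after Benjamini-Hochberg adjustment). Of these, 1273 were higher in CastB6 (2.24% of those tested) and 861 were higher in PwkB6 (1.52%). Among all tested transcripts, called or not, 44.0% had a log2 fold change above 0. The 2 directions differed in size. Transcripts higher in CastB6 had a median log2 fold change of 0.91 (1.88-fold), and those higher in PwkB6 had a median of -1.45 (2.73-fold). Among changes of at least 2-fold the order of the directions turned, with 556 transcripts higher in CastB6 and 631 higher in PwkB6. Of the changes of at least 8-fold, 175 were higher in CastB6 and 211 in PwkB6.

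In 1732 of the called transcripts, or 81.2%, the TPM of the 4 libraries of one cross all lay above those of the other, against 11.2% of all tested transcripts. On TMM-scaled log2 CPM, a scale added after seeing the data, the libraries were separate in 95.6% of the called and 11.1% of all tested transcripts. Which direction was separate more often depended on that scale: the shares were 71.6% of the transcripts higher in CastB6 and 95.2% of those higher in PwkB6 on TPM, and 97.1% and 93.4% on scaled CPM. The count of calls rested on single libraries: it was 1340 without CastB6 3, 1060 without CastB6 5, 1251 without PwkB6 1 and 3380 without PwkB6 5. Without both CastB6 1 and PwkB6 5, which resembled each other, it was 2557, with 56.4% higher in CastB6. With the filter, scaling and spread all taken from these 8 libraries alone it was 658 of 49843 tested, and with DESeq2 it was 5679.

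The majority in favour of CastB6 depended on the scaling. It was 59.7% of the calls with TMM scaling, 63.0% with the size factors of DESeq2, and 33.1% when log2(TPM + 1) was tested with limma on unscaled TPM. The scalings place the middle of all tested transcripts differently, at a median log2 fold change of -0.09 with TMM and -0.18 on the TPM scale. With TPM rescaled by TMM, an alternative chosen after seeing the data, the share was 56.3% and the median -0.05. With TMM-scaled counts but without CastB6 1 the share was 48.7%. The plot of calls under each way of analysis shows that unscaled TPM moved the direction most.

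**Figure D1:**
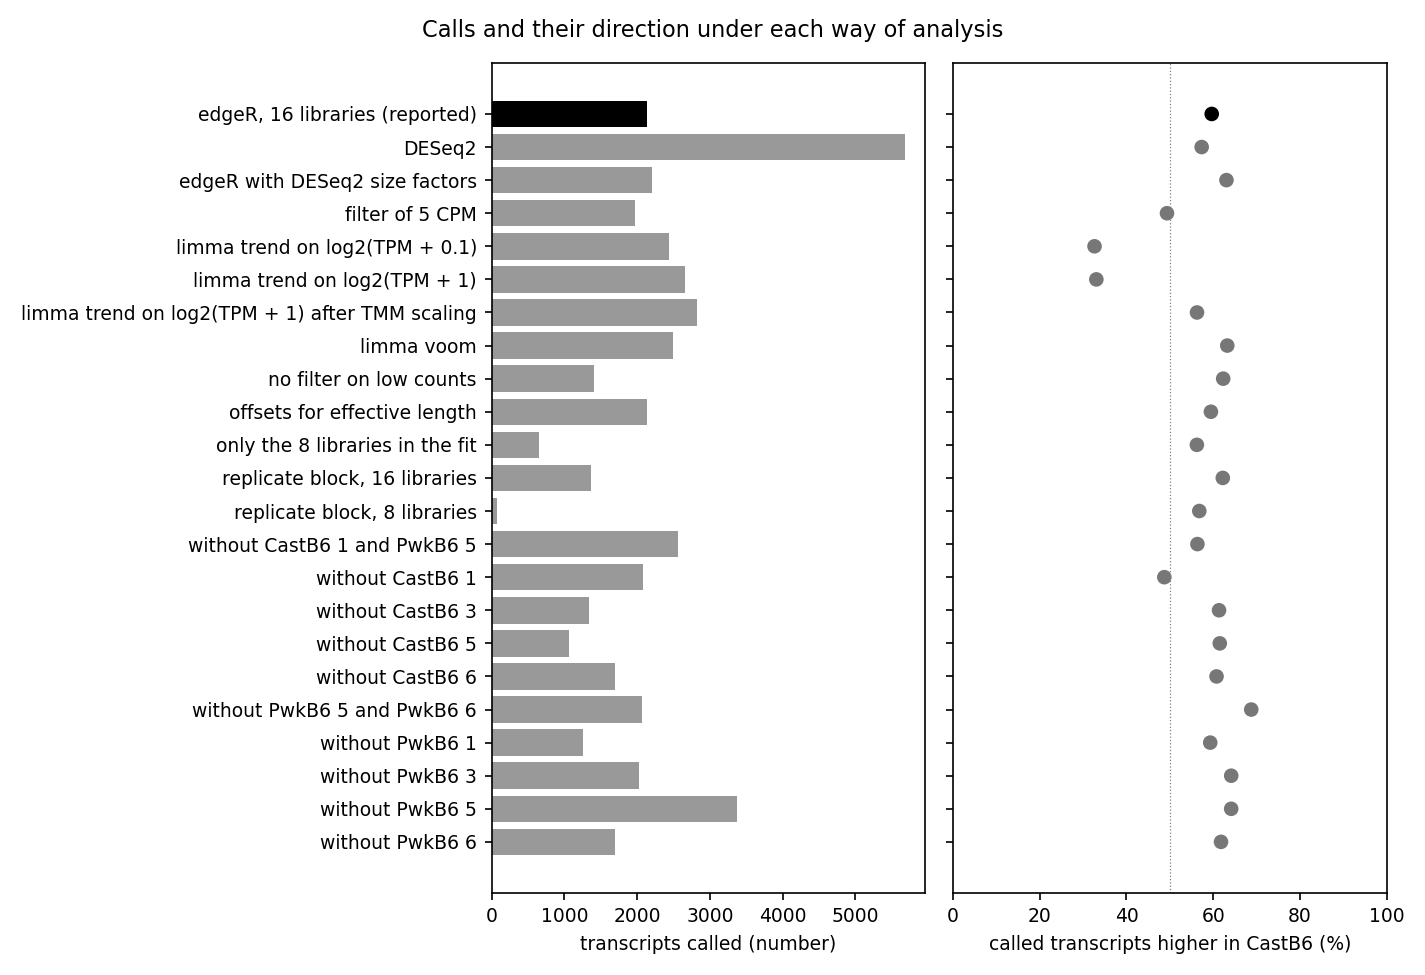
Bars give the number of transcripts called changed between CastB6 and PwkB6, and points give the percent of these that were higher in CastB6, for the reported analysis (black) and each alternative (grey). The share lies near 60% in most rows and at 33.1% and 32.6% in the rows for unscaled TPM, with 48.7% without CastB6 1 and 49.3% with the filter of 5 CPM.

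With TMM-scaled counts, the direction of the differences followed the level of the transcript. Tested transcripts were divided into 4 equal classes by their mean log2 CPM over the 8 libraries. In the lowest class 240 were called (1.69%), with 39.2% of them higher in CastB6. In the second class 316 were called, with 42.4% higher in CastB6, and in the third 538, with 46.5%. In the highest class 1040 were called (7.33%), and 76.4% of these were higher in CastB6. The changes in the highest class were small: the median log2 fold change was 0.67 among its 795 transcripts higher in CastB6 and -0.89 among its 245 higher in PwkB6. In the lowest class all 240 calls had a fitted change of at least 2-fold, and the fitted values there depend on how libraries with few or no reads are treated. The same slope was present over all tested transcripts, called or not, whose median log2 fold change went from -0.39 at the lowest levels to 0.12 at the highest. Of the 14181 transcripts in the lowest class, 7310 were tested when only the 8 compared libraries entered the filter and fit. Their median log2 fold change was -0.35. The majority for CastB6 at high levels was similar or larger in several other fits, with 79.4% under DESeq2 and 78.7% under limma voom. It was smaller or turned in some. Of the calls in the highest class 53.5% were higher in CastB6 with the filter of 5 CPM, where the median of all tested transcripts of the class was -0.01, and 39.4% on unscaled log2(TPM + 1), where it was -0.11. The share was 61.7% without CastB6 1.

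The slope was steepest in 3 libraries. The median difference of PwkB6 6 from the mean of the 8 libraries, in log2 CPM, was -0.23 for the highest class and 0.42 for the lowest. CastB6 3 and CastB6 5 showed the opposite order, with 0.12 and 0.16 for the highest class and -0.28 and -0.29 for the lowest. In CastB6 1, CastB6 6, PwkB6 1, PwkB6 3 and PwkB6 5 the highest-class medians lay between -0.05 and 0.04. Their lowest-class medians ran from -0.14 in CastB6 1 to 0.20 in PwkB6 1. In the fit without PwkB6 6, 45.9% of the calls in the lowest class and 74.8% in the highest were higher in CastB6.

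The median length was 2159 bases among called transcripts and 1838 among those tested. Those higher in CastB6 had a median of 1996 bases and those higher in PwkB6 a median of 2493. The larger the change, the shorter the transcripts. At 2-fold or more the medians were 1246.5 and 1901 bases, at 4-fold or more 1007 and 1290.5, at 8-fold or more 945 and 1159, and at 32-fold or more 913 and 956. Level goes with length here, since the median length of tested transcripts was 985 bases for the lowest class by level and 2731.5 for the highest. The plot of fold change against length shows the widest range of changes among transcripts under 2000 bases.

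**Figure D2:**
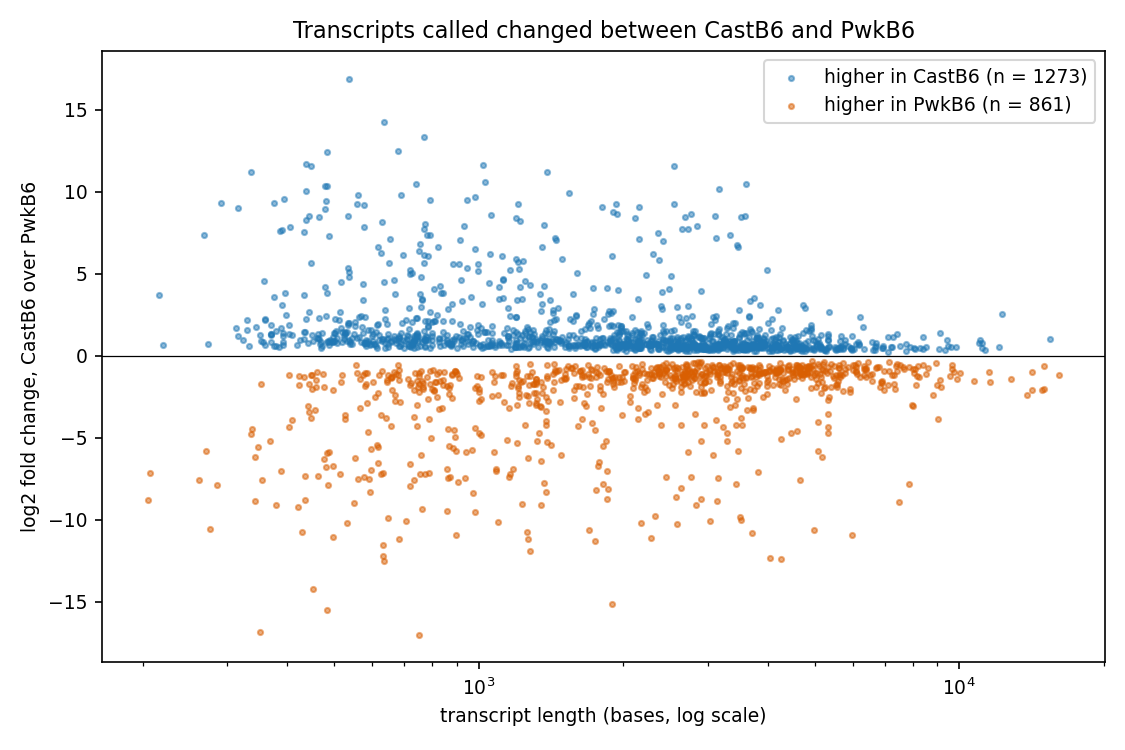
Each point is 1 of the 2134 called transcripts, with its length in bases on a log axis and its fitted log2 fold change of CastB6 over PwkB6; blue points are higher in CastB6 and orange points in PwkB6. Large changes in both directions gather among short transcripts, and fitted values for transcripts with no reads in a cross depend on the prior count.

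The share of transcripts called was 3.38% of the 4289 tested transcripts under 500 bases, 2.68% from 500 to under 1000, 4.21% from 1000 to under 2000, 4.21% from 2000 to under 5000 and 4.43% of the 5144 with 5000 bases or more. From the shortest to the longest class it went up with DESeq2, from 8.02% to 13.7%, and down with only the 8 libraries in the fit, from 2.14% to 0.891%, so no order by length held across fits. The share of calls higher in CastB6 was lowest among long transcripts. Of the calls under 500 bases 64.8% were higher in CastB6, as were 64.9%, 62.1% and 59.9% in the next 3 classes. From 5000 bases upward it was 41.2%, with 94 transcripts higher in CastB6 and 134 in PwkB6. Of all tested transcripts, 52.4% under 500 bases and 33.4% from 5000 bases upward had a log2 fold change above 0. Over all tested transcripts the median log2 fold change went from 0.05 in the shortest class to -0.23 in the longest. On unscaled log2(TPM + 1) no class had a majority for CastB6, and the share went from 44.9% in the shortest class to 9.66% in the longest.

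Length and direction also went together at a given level. Within the highest class by level, 34 of the 38 calls under 500 bases were higher in CastB6 (89.5%), and this share fell through 87.0%, 81.5% and 77.7% to 53.7% of 149 calls at 5000 bases or more. Within the third class by level it went from 65.8% under 500 bases to 22.2% at 5000 bases or more. Without PwkB6 6 the share in the third class went from 61.8% to 41.0%. Across all tested transcripts, length and the difference in mean log2 CPM had a Spearman correlation of -0.087, and within the highest class by level -0.324. These are descriptions over transcripts that share the same 8 libraries.

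The trend with length was weaker without PwkB6 6. Without this library, 57.1% of the calls at 5000 bases or more were higher in CastB6 and 64.3% of those under 500 bases. Without both PwkB6 5 and PwkB6 6, every class had a majority for CastB6. From the shortest class to the longest the shares were 75.3%, 72.8%, 63.7%, 68.2% and 67.8%, so the lowest was not in the longest class. The median log2 fold change of the longest class without PwkB6 6 was -0.06 in place of -0.23. The median lengths of the calls without that library were 2147 bases for those higher in CastB6 and 2133.5 for those higher in PwkB6. Without CastB6 5 the order also turned, with 1855.5 and 1714 bases, and with only the 8 libraries in the fit it was 1558.5 and 1440. Some of the trend remained within the highest class by level, where the share higher in CastB6 went from 85.7% under 500 bases to 68.4% at 5000 bases or more without PwkB6 6, and the correlation was -0.174.

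**Figure D3:**
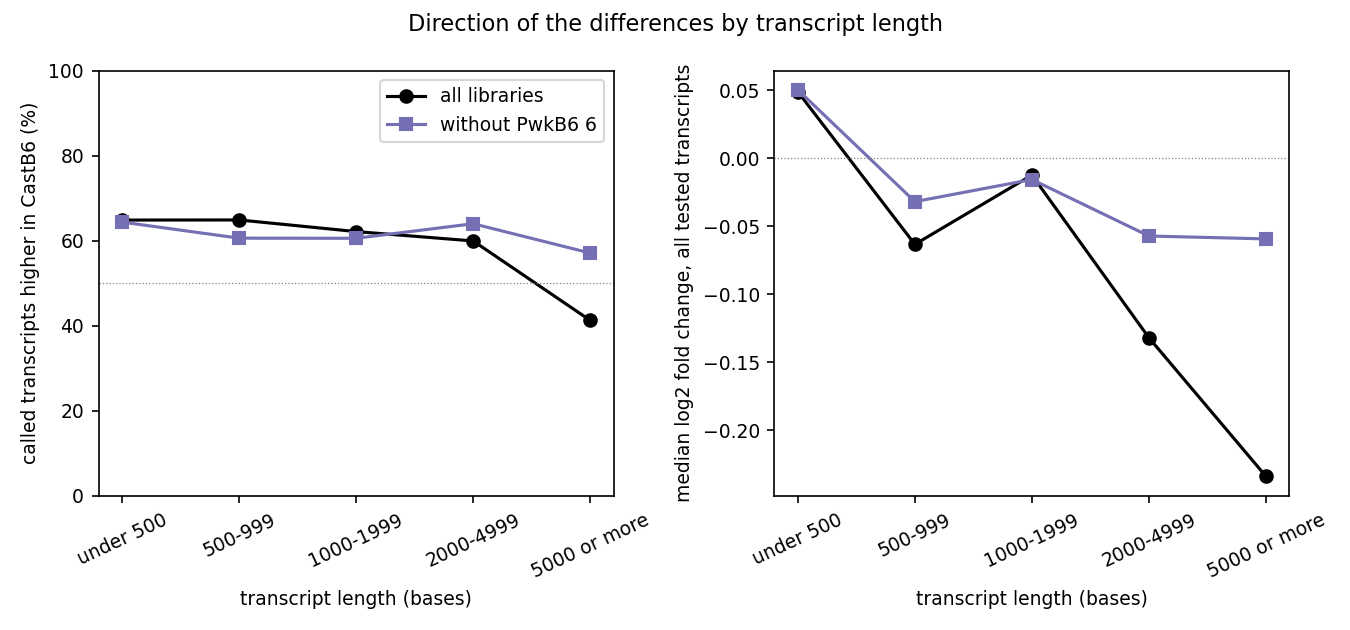
Percent of called transcripts that were higher in CastB6 (left) and median log2 fold change of CastB6 over PwkB6 over all tested transcripts (right) in 5 classes of transcript length, with all libraries (black circles) and without PwkB6 6 (purple squares). The fall in the longest class, to 41.2% and -0.23, is smaller without PwkB6 6, at 57.1% and -0.06.

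Measured per library, transcripts of 5000 bases or more made up 2.72%, 2.54%, 2.39% and 2.97% of TPM in CastB6 1, 3, 5 and 6. In PwkB6 1, 3, 5 and 6 they made up 2.82%, 2.76%, 2.78% and 4.45%. The crosses overlapped except for PwkB6 6. The means were 2.65% ± 0.247 in CastB6 and 3.20% ± 0.831 in PwkB6 (SD, n = 4 each; two-sided exact permutation p = 0.2, adjusted over 4 measures 0.571, where 0.0286 is the smallest p the design allows). Without PwkB6 6 the PwkB6 mean was 2.78% ± 0.0307 (SD, n = 3).

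The mean transcript length weighted by TPM gave the same picture, with 1292 to 1378 bases in CastB6, 1333 to 1370 in PwkB6 1, 3 and 5, and 1552 in PwkB6 6. The means of 1337 ± 35.1 and 1403 ± 100 bases did not differ beyond the spread between libraries (SD, n = 4 each; exact permutation p = 0.286, adjusted 0.571). Transcripts under 500 bases made up 25.8% ± 0.872 of TPM in CastB6 and 25.2% ± 1.58 in PwkB6, with 23.0% in PwkB6 6 (SD, n = 4 each; exact permutation p = 0.514, adjusted 0.686). The correction for fragment length, taken as the median of length minus effective length over transcripts longer than 2000 bases, was 151.1 ± 2.98 bases in CastB6 and 151.3 ± 3.94 in PwkB6 (SD, n = 4 each; exact permutation p = 0.943, adjusted 0.943). PwkB6 6 did not stand apart in that correction, at 148.5 bases.

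The excess of long transcripts in PwkB6 6 was broad. Of the 5144 tested transcripts of 5000 bases or more, 2284 (44.4%) had their highest level of the 8 libraries in PwkB6 6, against 23.3% of all tested transcripts. In the other 7 libraries the share of long transcripts at their highest level was 6.07% to 10.7%. PwkB6 6 also had the most transcripts with reads, 67901. Its 100 most abundant transcripts held 16.9% of all reads, the lowest share of the 8 libraries. The part of these features in the differences between the crosses was not tested beyond leaving the library out.

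**Figure D4:**
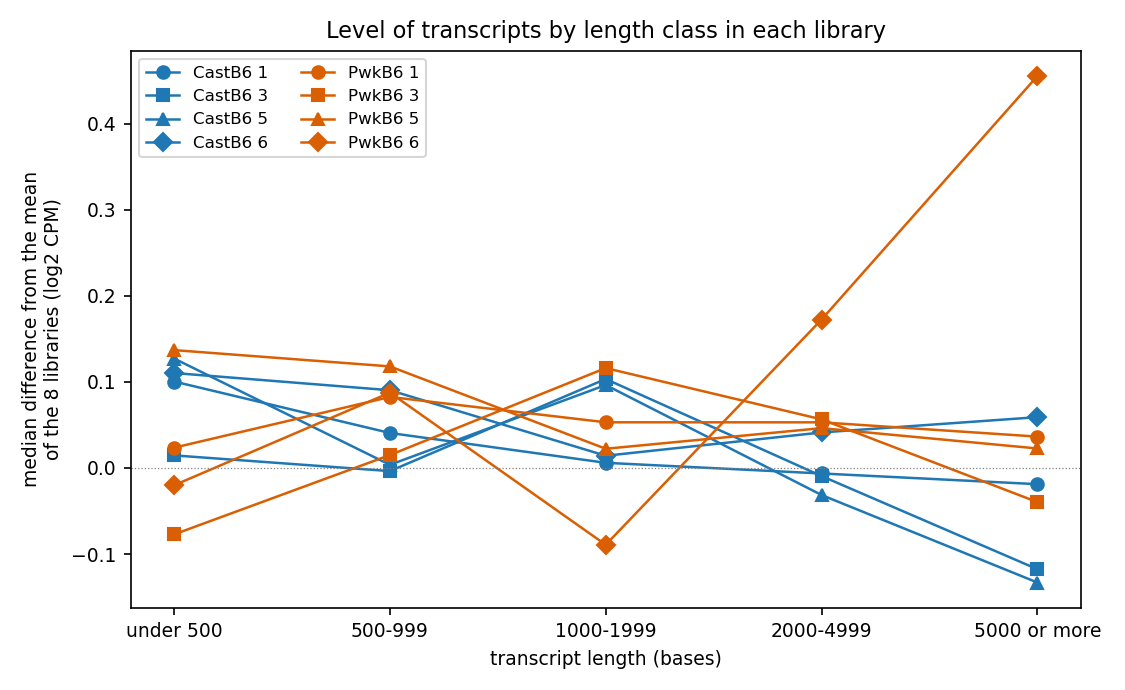
Median difference of each library from the mean of the 8 libraries, in log2 CPM, over the tested transcripts of 5 length classes; blue lines are CastB6 and orange lines PwkB6, with a marker for each library number. PwkB6 6 reaches 0.46 at 5000 bases or more, where the other 7 libraries lie between -0.13 and 0.06.

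The spread within a cross was larger for short transcripts than for long ones. In CastB6 the median SD of log2 CPM was 0.57 under 500 bases and 0.33 at 5000 bases or more (n = 4). In PwkB6 the medians were 0.63 and 0.45 (n = 4), and without PwkB6 6 they were 0.55 and 0.31 (n = 3). The spread varied more with level: in CastB6 it was 1.08 in the lowest class by level and 0.22 in the highest (n = 4). Short transcripts were also the weaker ones, with a median of -1.61 log2 CPM under 500 bases and 2.59 at 5000 bases or more. No test of these differences was run.

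Some transcripts were present in one cross and absent in the other. Presence was taken as at least 10 reads in each of the 4 libraries, and absence as at most 3 in each. By these limits 88 transcripts were present in CastB6 and absent in PwkB6, and 99 were present in PwkB6 and absent in CastB6. Of these, 73 and 76 passed the test across all transcripts. The limits fix the direction, so these counts describe the lists and are no support for them. The lists were short in length, with medians of 990.5 and 1203 bases, and 51.1% and 46.5% of their members were under 1000 bases, against 34.1% of all tested transcripts. Most were weakly expressed, with a median of 61.5 and 52.0 reads per library where present, and 17 and 15 of them reached 10 TPM on average.

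Estimates were whole numbers in all 8 libraries for 6 of the 88 and 3 of the 99, so for nearly all of these transcripts reads shared with others were divided, and the part of that division in their absence was not tested. Whole estimates were also rare among the calls: 88 of the 2134 called transcripts (4.12%) and 1880 of the 56721 tested (3.31%). The 99 became 157 without CastB6 6, 166 without CastB6 1, 151 without PwkB6 1 and 167 without PwkB6 5, as fewer libraries have to meet the limits.

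MolfB6 and SpretB6 were not part of the comparison, and their states of the same transcripts are given as levels. Of the 88 transcripts present in CastB6 and absent in PwkB6, 42 were absent in MolfB6 and 14 present, with 32 in between. In SpretB6 37 were absent and 22 present. Of the 99 present in PwkB6 and absent in CastB6, 42 were present in MolfB6 and 22 absent, and 36 were present in SpretB6 and 25 absent. In 21 of the 88 and 14 of the 99, the transcript met the limit of absence in both other crosses as well.

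Over all calls, MolfB6 lay nearer to PwkB6 than to CastB6 more often than not. Its mean log2 CPM was on the PwkB6 side of the midpoint between the 2 crosses in 61.8% of the 1273 transcripts higher in CastB6 and in 60.6% of the 861 higher in PwkB6. Over all tested transcripts this share was 51.4%. SpretB6 was on the PwkB6 side in 51.0% and 55.3% of the same calls, and in 49.7% of all tested transcripts. Transcripts are not replicates, and these shares carry no test.

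The strongest differences in favour of CastB6 were short transcripts with no or almost no reads assigned in PwkB6. ENSMUST00000183478.2, of 538 bases, stood at 582.7, 858.0, 814.5 and 721.7 TPM in CastB6 1, 3, 5 and 6, and had 0 reads in all 4 PwkB6 libraries. Separate libraries were required for the choice of the transcripts with the largest changes. CastB6 was at least 18100-fold higher when 3 reads over the 4 PwkB6 libraries are taken as the limit of a count of 0 (edgeR adjusted p = 2.28e-10). It was also present in MolfB6, at 660 ± 87.6 TPM, and in SpretB6, at 381 ± 31.5 (SD, n = 4 each). PwkB6 was thus the only cross with no reads assigned to it. The estimates of this transcript were not whole in all compared libraries, and the part of divided reads in its absence was not tested.

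ENSMUST00000121654.2, of 768 bases, stood at 37.3, 39.9, 38.4 and 36.9 TPM in the CastB6 libraries and had 0 reads in PwkB6. CastB6 was at least 1530-fold higher (edgeR adjusted p = 2.29e-11), and the 4 CastB6 values lay close together. MolfB6 reached 91.5 ± 3.68 TPM and SpretB6 49.9 ± 4.38 (SD, n = 4 each). PwkB6 was again the only cross with no reads assigned.

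ENSMUST00000121821.2, of 636 bases, had reads assigned almost only in CastB6. It stood at 189.8, 356.6, 284.2 and 248.1 TPM in CastB6, while PwkB6 held 1 read in all, in PwkB6 5, and MolfB6 and SpretB6 held none. The ratio of CPM was 25599 with a 95% counting interval of 4594 to 1011100 (edgeR adjusted p = 1.54e-06). A counting interval of this kind covers counting error only and leaves out the spread between libraries. The fitted log2 change of ENSMUST00000121821.2 was 14.25, and 15.80 without PwkB6 5. ENSMUST00000189941.2, of 678 bases, was likewise listed with reads in CastB6 only, at 64.6 TPM in CastB6 1 and 9.36, 13.0 and 12.5 TPM in CastB6 3, 5 and 6. CastB6 was at least 853-fold higher than PwkB6 (edgeR adjusted p = 0.0163). Without CastB6 1 the bound was 399-fold. This call was lost under 5 alternatives, among them leaving out CastB6 5 and limma voom.

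ENSMUST00000121788.2 (438 bases) and ENSMUST00000117531.2 (447 bases) were shared with SpretB6. The former stood at 118.4, 235.9, 217.6 and 167.2 TPM in CastB6, held 3 reads in all of PwkB6, and reached 277 ± 29.7 TPM in SpretB6 (SD, n = 4). Its ratio of CPM was 3472 with a 95% counting interval of 1188 to 16834 (edgeR adjusted p = 2.85e-09), and its fitted log2 change of 11.73 became 12.74 without PwkB6 3. The latter stood at 361.4, 407.6, 387.2 and 416.5 TPM in CastB6 and at 0.227, 0.0985, 0.211 and 0.0880 TPM in PwkB6, with a log2 change of 11.57 ± 0.32 (SE, adjusted p = 2.34e-11 by edgeR). Both were at or under 1 TPM in every PwkB6 library, and their separation from CastB6 was required by the choice.

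The strongest differences in favour of PwkB6 had 0 reads in all 4 CastB6 libraries. ENSMUST00000118499.2, of 750 bases, stood at 588.4, 464.0, 527.4 and 877.8 TPM in PwkB6 1, 3, 5 and 6, at least 24600-fold higher than in CastB6 (edgeR adjusted p = 3.08e-08). It was present in MolfB6, at 687 ± 61.6 TPM (SD, n = 4), and had 0 TPM in SpretB6. ENSMUST00000212102.2, of 351 bases, stood at 1481, 897.5, 2478 and 1422 TPM in PwkB6, at least 21700-fold higher (edgeR adjusted p = 4.94e-08), and was present in both other crosses. CastB6 was the only cross with no reads assigned to it.

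ENSMUST00000178657.2, of 483 bases, had reads in PwkB6 only. Its 4 values, 385.4, 392.9, 381.9 and 345.1 TPM, lay close together, and PwkB6 was at least 8520-fold higher (edgeR adjusted p = 6.01e-05). ENSMUST00000182017.2, of 453 bases, was also at 0 TPM in the 12 libraries of the 3 other crosses. It spread more widely in PwkB6, with 150.6, 312.0, 122.9 and 88.5 TPM, and was at least 3490-fold higher than in CastB6 (edgeR adjusted p = 0.00378).

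ENSMUST00000081204.6, of 1891 bases, was the longest of these 6 and stood at 48.6, 42.2, 38.6 and 108.5 TPM in PwkB6, at least 6810-fold higher than in CastB6 (edgeR adjusted p = 2.71e-09). ENSMUST00000117103.2, of 635 bases, stood at 31.7, 30.9, 34.6 and 36.6 TPM, at least 1090-fold higher (edgeR adjusted p = 5.7e-10). Both were present in MolfB6 and SpretB6, at 45.5 ± 3.93 and 27.1 ± 1.22 TPM for the former and 18.98 ± 1.55 and 22.4 ± 2.69 TPM for the latter (SD, n = 4 each). None of the 12 transcripts with the largest changes had whole estimates in all 8 libraries, so reads shared with other transcripts were divided, and the lower bounds do not cover that division.

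**Figure D5:**
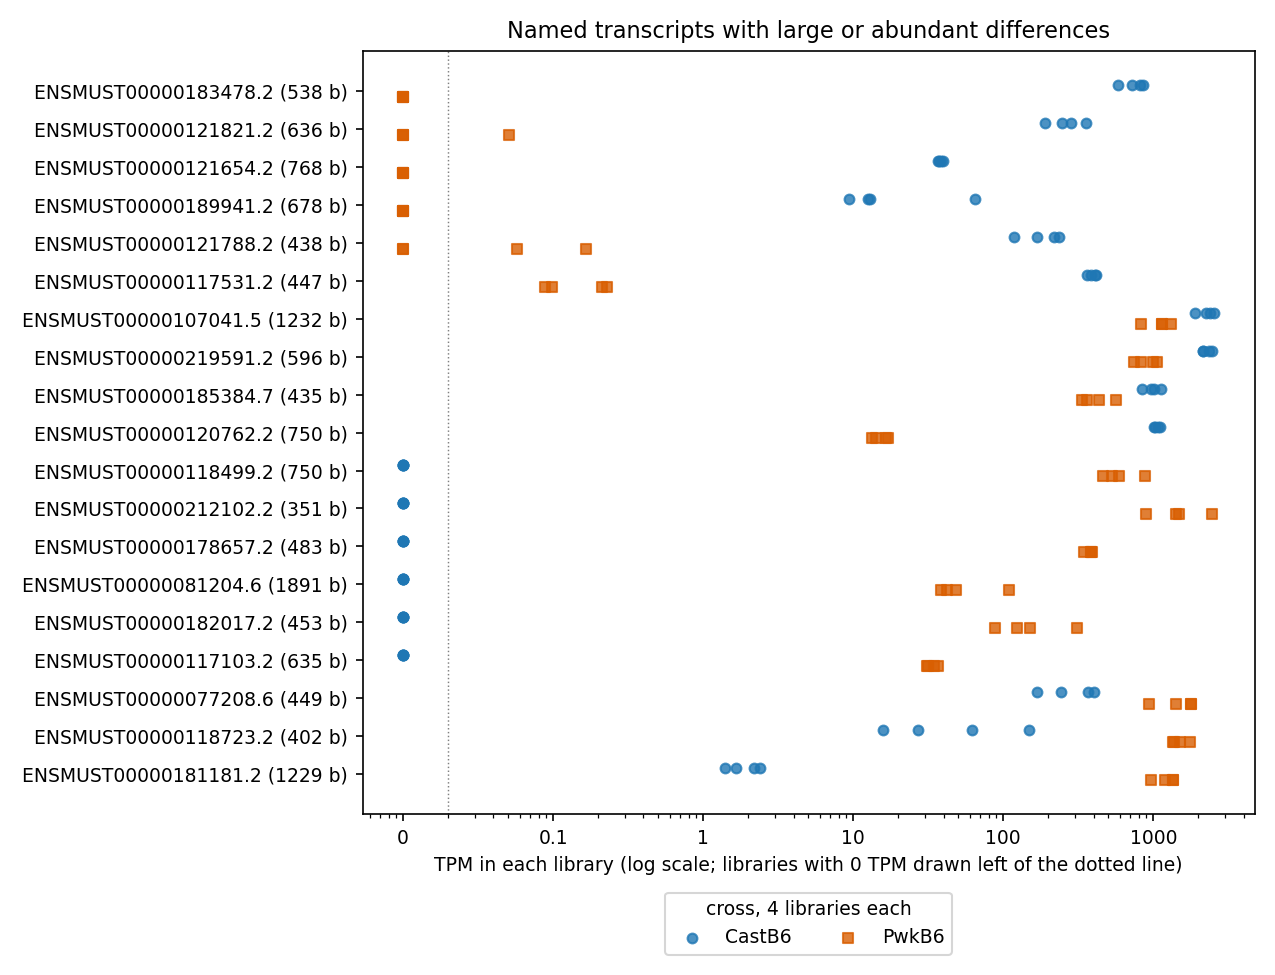
TPM on a log axis in each of the 4 CastB6 libraries (blue circles) and 4 PwkB6 libraries (orange squares) for the transcripts with the largest changes and the most abundant transcripts that changed at least 2-fold; transcript lengths are in bases (b), and points left of the dotted line are 0 TPM. In each row the 2 crosses are separate, which the choice of the transcripts with the largest changes required.

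The most abundant transcripts that changed at least 2-fold ranged more widely in size of change. ENSMUST00000107041.5, of 1232 bases, stood at 1885, 2548, 2230 and 2401 TPM in CastB6 and at 1136, 1303, 829.1 and 1137 TPM in PwkB6. Its log2 change was 1.29 ± 0.14 (SE, adjusted p = 7.17e-05 by edgeR), and the lowest CastB6 library lay above the highest PwkB6 library. ENSMUST00000219591.2, of 596 bases, stood at 2450, 2131, 2133 and 2357 TPM in CastB6 and at 1002, 826.0, 1067 and 745.0 TPM in PwkB6, with a log2 change of 1.54 ± 0.18 (SE, adjusted p = 0.000142 by edgeR). MolfB6 (1003 ± 110 TPM) and SpretB6 (994 ± 77.4) were at the PwkB6 level (SD, n = 4 each), so CastB6 was the high cross.

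ENSMUST00000185384.7, of 435 bases, had the reverse pattern among the other crosses. It stood at 985 ± 113 TPM in CastB6, 890 ± 93.3 in MolfB6 and 843 ± 129 in SpretB6, and at 425 ± 104 in PwkB6 (SD, n = 4 each). The log2 change was 1.43 ± 0.22 between CastB6 and PwkB6 (SE, adjusted p = 0.00177 by edgeR). Here PwkB6 was the low cross. ENSMUST00000120762.2, of 750 bases, stood at 1017, 1022, 1107 and 1071 TPM in CastB6 and at 14.1, 13.3, 17.1 and 16.5 TPM in PwkB6, a log2 change of 6.36 ± 0.14 (SE, adjusted p = 6.91e-12 by edgeR). SpretB6 lay between them at 415 ± 7.12 TPM, and MolfB6 was near PwkB6 at 17.9 ± 1.02 (SD, n = 4 each).

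Of the abundant transcripts higher in PwkB6, ENSMUST00000077208.6, of 449 bases, stood at 1772, 1774, 937.1 and 1408 TPM in PwkB6 and at 166.8, 404.1, 369.5 and 242.9 TPM in CastB6. Its log2 change was -2.05 ± 0.28 (SE, adjusted p = 0.000658 by edgeR). ENSMUST00000118723.2, of 402 bases, stood at 1514, 1378, 1755 and 1349 TPM in PwkB6. Its CastB6 libraries were low but far apart, at 148.4, 15.8, 27.2 and 61.9 TPM, and the log2 change was -4.36 ± 0.53 (SE, adjusted p = 0.00024 by edgeR). Without CastB6 1 it was -5.23. ENSMUST00000181181.2, of 1229 bases, stood at 1189, 1347, 972.9 and 1357 TPM in PwkB6 and at 1.39, 2.38, 2.19 and 1.66 TPM in CastB6, with a log2 change of -9.05 ± 0.23 (SE, adjusted p = 1.99e-11 by edgeR). MolfB6 and SpretB6 were at 1520 ± 149 and 1139 ± 85.8 TPM for the first of these and at 1713 ± 150 and 1455 ± 48.6 TPM for the second (SD, n = 4 each), so CastB6 was the low cross in both.

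Transcripts with whole estimates in all 8 libraries give no sign of shared reads. The most abundant of those called were chosen without a limit on fold change. The size of their changes therefore cannot be set against that of the transcripts above, which were chosen for large changes. ENSMUST00000034285.14, of 1596 bases, stood at 35.9, 65.4, 58.9 and 42.9 TPM in CastB6 and at 14.1, 9.53, 7.60 and 15.3 TPM in PwkB6, with a log2 change of 2.42 ± 0.32 (SE, adjusted p = 0.000489 by edgeR). The crosses did not overlap. ENSMUST00000042575.7, of 3856 bases, stood at 76.0 ± 8.76 TPM in CastB6 and 63.7 ± 5.11 in PwkB6 (SD, n = 4 each). Its libraries overlapped in TPM, and its log2 change of 0.49 ± 0.11 (SE, adjusted p = 0.0275 by edgeR) was lost under 10 alternatives, among them leaving out CastB6 1, CastB6 5, PwkB6 1, PwkB6 3 or PwkB6 6.

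In the other direction, ENSMUST00000031843.7, of 566 bases, stood at 29.5, 14.6, 22.9 and 5.67 TPM in PwkB6 and at 3.14, 1.60, 0.965 and 1.29 TPM in CastB6. Its log2 change was -3.20 ± 0.58 (SE, adjusted p = 0.00645 by edgeR). ENSMUST00000099678.5, of 3134 bases, stood at 9.67, 12.9, 8.20 and 10.2 TPM in PwkB6 and at 4.36, 4.91, 4.74 and 4.27 TPM in CastB6, with a log2 change of -0.92 ± 0.20 (SE, adjusted p = 0.0195 by edgeR). Both were separate between the crosses, and the call of the latter was lost without CastB6 6 or PwkB6 3.

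The calls of the longest transcripts depended on single libraries. The longest called transcript with a mean of at least 1 TPM, ENSMUST00000214357.2 of 16144 bases, stood at 1.29, 1.35, 1.13 and 1.97 TPM in CastB6 and at 2.82, 2.25, 2.07 and 9.60 TPM in PwkB6. PwkB6 6 was far above the rest, and the log2 change of -1.18 ± 0.31 (SE, adjusted p = 0.0473 by edgeR) was lost under 13 alternatives, among them leaving out CastB6 1, 3, 5 or 6 or PwkB6 1. It held without PwkB6 6. ENSMUST00000023226.13, of 15001 bases, stood at 3.18, 1.58, 1.80 and 5.66 TPM in PwkB6 and at 1.26, 0.266, 0.338 and 0.503 TPM in CastB6, a log2 change of -2.05 ± 0.48 (SE, adjusted p = 0.0303 by edgeR). That call was lost under 9 alternatives, among them leaving out CastB6 3, 5 or 6 or PwkB6 1 or 6. Without CastB6 1 the log2 change was -2.73.

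ENSMUST00000080953.12, of 15460 bases, was higher in CastB6 in the fit, with 9.25, 9.69, 9.83 and 11.3 TPM. In PwkB6 it stood at 3.81, 5.47 and 4.30 TPM in PwkB6 1, 3 and 5, but at 11.2 TPM in PwkB6 6, which overlapped CastB6. Its log2 change was 1.02 ± 0.23 (SE, adjusted p = 0.0239 by edgeR). This call was lost under 12 alternatives, among them leaving out CastB6 3, 5 or 6 or PwkB6 1 or 5. All 3 of the longest transcripts thus had their highest PwkB6 value in PwkB6 6.

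The 3 shortest were ENSMUST00000120931.2 (205 bases), ENSMUST00000121055.2 (207 bases) and ENSMUST00000172822.2 (216 bases). The first stood at 89.3, 86.0, 95.5 and 88.1 TPM in PwkB6, with 2 reads in all of CastB6. Its ratio of CPM was 614 with a 95% counting interval of 170 to 5071 (edgeR adjusted p = 0.00023), and its fitted log2 change of -8.78 became -11.12 without CastB6 5. The second had 72 reads over the 4 PwkB6 libraries and 0 in CastB6, at least 25.8-fold higher (edgeR adjusted p = 0.0356), a call lost whenever any of the 8 libraries was left out. The third had 76 reads in CastB6 and 6 in PwkB6, with a log2 change of 3.68 ± 0.82 (SE, adjusted p = 0.0231 by edgeR), and its call was lost without CastB6 3, CastB6 5 or PwkB6 1. Without PwkB6 5 its log2 change was 5.30.

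A smaller set of differences held in every analysis tried except the model with the title number as a block over 8 libraries. This set held 310 of the 2134 calls (14.5%) in the same direction under all 21 other alternatives, 179 higher in CastB6 and 131 higher in PwkB6. In 305 of them the libraries of the 2 crosses did not overlap in TPM, against 1732 of all 2134 calls. Changes of at least 2-fold made up 266 (85.8%), against 55.6% of all calls. Passing every fit favours large changes and separate libraries, so these counts describe the set and are no support for it. The median lengths of the 310 were 1452 and 1578 bases for the 2 directions. With that block model included, 77 calls (3.61%) held under all 22 alternatives, 43 higher in CastB6 with a median length of 793 bases and 34 higher in PwkB6 with 1299 bases. One of the alternatives tests only transcripts of at least 5 CPM in 4 libraries, so the set leaves out weakly expressed transcripts by construction. Leaving out each of the 8 libraries in turn retained 941 calls (44.1%), 583 higher in CastB6 with a median length of 1802 bases and 358 higher in PwkB6 with 1736 bases.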

How the data were processed

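Bulk ribodepleted RNA-seq of 4 CastB6 and 4 PwkB6 libraries was compared at transcript level, with 4 MolfB6 and 4 SpretB6 libraries in the same model. Groups came from the titles. The deposited estimated counts are reads per transcript with ambiguous reads divided among transcripts, per the file headers. The deposited TPM values are the same abundances per effective length, scaled to a fixed sum per library, per the file headers. Per the submitters' processing notes, Salmon and DESeq2 were used with build mm10. The versions, transcript set, strand and bias settings and treatment of wild-derived alleles were not given in the sources used here.

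Estimated counts were rounded and tested with edgeR 4.0.16 (R 4.3.3; filterByExpr with a minimum count of 10 and total of 15; TMM; quasi-likelihood F test; contrast of CastB6 with PwkB6 in a fit of all 16 libraries). P-values were adjusted by Benjamini-Hochberg over 56721 transcripts with a threshold of 0.05. The SE of each log2 fold change was obtained from its F value. Log2 CPM used a prior count of 2. Library totals of 42596559 to 71200628 put the limit of a count of 0, taken as 3 reads, at 0.0421 to 0.0704 CPM, which covers counting error only. Alternatives used limma 3.58.1 and DESeq2 1.42.0. The tables hold no resampled estimates, so the error of dividing shared reads is in no test.

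The members, lists and rules were chosen with earlier results of these data known. Named transcripts were, among those called, the 6 largest changes each way with non-overlapping libraries and at least 10 TPM in the higher cross; the 4 most abundant each way that changed at least 2-fold; the 3 longest and 3 shortest with a mean of at least 1 TPM; and the 2 most abundant each way whose estimates were whole numbers, within 0.001, in all 8 libraries. The planned gene lists and sums per gene were not run, because the reference table used here pairs none of the Ensembl transcript IDs with a gene. No 2 libraries of a cross agreed within sampling noise.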

Additional observations from a re-analysis of the deposited data

Results flagged for a closer look

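Each of 72 groups of 4 libraries, over 7 library measures and the TPM of 29 named transcripts in each cross, was searched for 1 library far from the other 3, and 7 groups had one. A rate of 1 in 20 would give about 3.6, but the groups are not independent and several hold tied zeros, where any value above 0 stands out.

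PwkB6 6 stood apart from the other 3 PwkB6 libraries in 4 groups. Its TPM-weighted mean length was 1552 bases, and 4.446% of its TPM lay in transcripts of 5000 bases or more. ENSMUST00000081204.6 stood there at 108.5 TPM and ENSMUST00000214357.2 at 9.595 TPM. The call of the former held without PwkB6 6, as did that of the latter.

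In CastB6, ENSMUST00000189941.2 stood at 64.56 TPM in CastB6 1. ENSMUST00000120931.2 stood at 0.4387 TPM in CastB6 5, where its 2 reads lay, with 0 in the other 3 libraries. ENSMUST00000121821.2 stood at 0.05066 TPM in PwkB6 5, from 1 read, with 0 in the other 3.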

How the results depend on the processing

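The number of calls, 2134, was 5679 with DESeq2, 1403 with no filter, 658 with only the 8 libraries in the fit and 88 among transcripts with whole estimates. Left-out libraries gave 1060 to 3380. With the title number as a replicate block it was 1360 over 16 libraries and 81 over 8. The labels do not say that a number marks a shared source, and deviations of same-numbered libraries correlated at -0.042, 0.133, -0.067 and 0.079 over transcripts, so the numbers were not taken as pairs. The share higher in CastB6, 59.7%, turned to 49.3% with a filter of 5 CPM and to 33.1% and 32.6% on log2 TPM with pseudocounts of 1 and 0.1. With 1 library left out it lay between 48.7% (without CastB6 1) and 64.1%.

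The median length of calls higher in CastB6 was 1194 and 1195.5 bases on the TPM scale, 1485.5 with TPM scaled by TMM, 1558.5 with only the 8 libraries, 818 with the replicate block over 8 and 2396.5 for whole estimates. For calls higher in PwkB6 it was 1440 with only the 8 libraries and 1369 with that block. The difference between directions, -497 bases, was 118.5 with only the 8 libraries, and between -995 and 141.5 with 1 library left out, among them 13.5 without PwkB6 6 and 141.5 without CastB6 5. The causes were not tested.

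Transcripts present in CastB6 alone of the pair, 88, were 43 at 50 reads for presence, 47 at 0 reads for absence, 6 with whole estimates and 99 to 132 with 1 library left out. Those present in PwkB6 alone, 99, were 38, 62, 3 and 129 to 167. The fragment correction differed by -0.26 bases, between -1.51 and 1.22 with 1 library left out, and the TPM share under 500 bases by 0.68 points, between -0.0235 (without PwkB6 6) and 1.18. With 3 libraries in a cross those tests cannot reach p under 0.0571. Of the values of the 29 named transcripts under the alternatives, 545 kept both direction and call, 89 lost the call and none turned; 24 of the losses came with the replicate block over 8 libraries. Libraries were separate in 95.6% of all calls, 97.1% of those higher in CastB6 and 93.4% of those higher in PwkB6 on scaled CPM, against 81.2%, 71.6% and 95.2% on TPM. The alternatives without 2 libraries, with scaled TPM and with separation on scaled CPM were chosen after seeing the data. The alternative with sums per gene was not run.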
